A study of Homo sapiens with 12 samples.

Results

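The genes described here are 10 members of the purinergic system: the receptors P2RX7, P2RX4, P2RX5, P2RX6, P2RY1, P2RY2 and P2RY11, the enzymes ENTPD1 and NT5E, and the channel PANX1. They were taken by symbol from the 56609 gene symbols of the files, where all 10 were found. P2RX7 was picked because it was nearly absent from TC-71-R and abundant in its parent. P2RX4 was included as its neighbour on chromosome 12, and ENTPD1 and NT5E because together they turn ATP outside cells into adenosine. The other members were included as genes of the same system. The set was thus chosen by the difference in P2RX7 level between TC-71-R and parental TC-71, and that comparison is described for the members without a test.

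RNA sequencing was run on 12 libraries from A4573 and TC-71, 2 human cell lines derived from Ewing sarcoma. Ewing sarcoma is a bone and soft tissue tumour whose cells carry a fusion of EWSR1 with an ETS factor gene, most often FLI1, and such ETS factors bind DNA at GGAA. Each line was present as a parental culture given the solvent DMSO and as a derivative, A4573-R or TC-71-R, that resists the small molecule YK-4-279 and was given it, with the dose labelled 650 uM in A4573-R and 400 uM in TC-71-R. Each of the 4 groups has 3 libraries. The dose unit is printed as labelled and looks unusually high for this compound. Resistance and exposure to the compound go together in both derivatives and cannot be told apart. The sources used here do not say whether a derivative is a single clone. Nothing in the labels says that the 3 libraries of a group came from separate cultures, so the p-values measure the spread between libraries only, which may be technical.

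ATP released from cells acts on a pair of receptor families. P2X receptors are cation channels that ATP opens directly, and P2Y receptors are G protein-coupled receptors for ATP, ADP or other nucleotides. ENTPD1, also known as CD39, removes phosphates from ATP and ADP to leave AMP, and NT5E, also known as CD73, turns AMP into adenosine, which has receptors of its own. P2RX7 needs far more ATP to open than the other P2X channels, can lead to a pore for larger molecules, and is best known in macrophages, where it drives the inflammasome and release of IL1B. In Ewing sarcoma and other tumours it has been studied as a receptor on the tumour cells themselves.

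The bases just upstream of the RefSeq starts of 4 members are shown because P2RX7 and P2RX4 lie next to each other and differ in base composition there, and because P2RY1 and P2RY11 are the P2Y receptors with the most reads. Each run is the 250 bases before the gene start in RefSeq on GRCh38.p14, 5′ to 3′ on the plus strand, which is the strand of all 4 genes. Capitals mark GGAA and its reverse complement TTCC.
P2RX7: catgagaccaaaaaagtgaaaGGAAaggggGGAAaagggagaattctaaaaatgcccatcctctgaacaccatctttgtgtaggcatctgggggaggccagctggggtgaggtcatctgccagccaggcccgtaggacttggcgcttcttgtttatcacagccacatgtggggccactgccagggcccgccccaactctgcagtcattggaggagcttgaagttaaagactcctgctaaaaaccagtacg
P2RX4: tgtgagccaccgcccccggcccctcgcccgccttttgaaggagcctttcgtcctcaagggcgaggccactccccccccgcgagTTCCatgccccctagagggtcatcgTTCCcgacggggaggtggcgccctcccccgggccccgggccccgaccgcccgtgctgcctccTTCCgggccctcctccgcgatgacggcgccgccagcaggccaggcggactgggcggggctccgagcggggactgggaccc
P2RY1: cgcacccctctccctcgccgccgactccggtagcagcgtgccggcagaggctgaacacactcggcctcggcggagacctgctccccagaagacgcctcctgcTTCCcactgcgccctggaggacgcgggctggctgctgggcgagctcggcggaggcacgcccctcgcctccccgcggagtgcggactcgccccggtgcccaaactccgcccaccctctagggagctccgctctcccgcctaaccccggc
P2RY11: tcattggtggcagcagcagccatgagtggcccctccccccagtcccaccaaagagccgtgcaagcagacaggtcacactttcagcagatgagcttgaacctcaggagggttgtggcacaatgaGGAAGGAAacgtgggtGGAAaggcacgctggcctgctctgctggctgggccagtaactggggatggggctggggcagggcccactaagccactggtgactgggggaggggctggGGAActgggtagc
The windows are chr12:121132626-121132875 for P2RX7, chr12:121209879-121210128 for P2RX4, chr3:152834881-152835130 for P2RY1 and chr19:10111443-10111692 for P2RY11. The P2RX7 window was the poorest in G and C of the 4, with 53.2% GC and 4 CG pairs, against 76% and 27 for P2RX4, 74% and 28 for P2RY1, and 62.4% and 3 for P2RY11. The median over the 35116 windows of this length in the RefSeq table was 58% GC and 11 CG pairs, and 34.3% of windows had no more CG pairs than P2RX7. GGAA, searched on both strands, occurred 2 times for P2RX7, 3 times for P2RX4, 1 time for P2RY1 and 4 times for P2RY11. It occurred in 92.7% of all windows, and 76.5% had at least as many matches as P2RX7. The repeat GGAAGGAA, which contains GGAA, was present for P2RY11 and in 3.06% of all windows. CCAAT was present for P2RX7 and P2RY11 and in 32.0% of windows. GGGCGG occurred 1 time for P2RX7 and P2RY1 and 3 times for P2RX4, and 42.6% of windows had it. A match here describes letters and not a bound site. The table had an entry for 7 of the 10 members.

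In the gene annotation (GENCODE 29, GRCh38), P2RX7 spans chr12:121132819-121188032 and P2RX4 chr12:121209857-121234106, both on the plus strand. The starts of these neighbours lie 77.0 kb apart. The other P2X genes are P2RX5 at chr17:3672199-3696404 on the minus strand and P2RX6 at chr22:21009808-21028830 on the plus strand. The P2Y genes are P2RY1 at chr3:152834693-152841439, P2RY2 at chr11:73218298-73236352 and P2RY11 at chr19:10111538-10115372. ENTPD1 lies at chr10:95711779-95869695, NT5E at chr6:85449584-85495791 and PANX1 at chr11:94128928-94181972, and these 6 genes are on the plus strand. By these spans the windows shown above for P2RX4 and P2RY1 lie within the gene, and those for P2RX7 and P2RY11 run past the gene start. The values are summed over all transcripts of a gene, so isoforms were not separated.

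The libraries hold 44.0 to 62.1 M reads (M, 1000000) on named genes. Values are the deposited CPM, reads per 1000000 on scaled library sizes, and differences were tested with limma on log2(CPM + 1) in the 14335 genes that reached 1 CPM in 3 or more libraries. Of the 10 members 8 passed this filter, while P2RX6 and P2RY2 did not. P2RX7 passed mainly through A4573-R and parental TC-71, and NT5E met it in the 3 parental TC-71 libraries alone, so its entry did not depend on the A4573 libraries. Among the markers of Ewing cells 9 of 10 passed. CD99 is listed at or near 0 under 2 entries, and the sources used here do not give how reads that match both were counted, so this is not taken as its level. The summed level of the Ewing markers was 1205 to 1248 CPM in parental A4573, 956 to 998 in A4573-R, 1759 to 1771 in parental TC-71 and 2122 to 2171 in TC-71-R. CCND1, the largest part of each sum, averaged 633, 349, 747 and 972 CPM in these groups, in that order. The markers did not move together in A4573-R. There PRKCB (95.9 in the parent, 182 in A4573-R), GLI1 (13.6 and 72.9) and NKX2-2 (28.5 and 36.0 CPM) had higher means. NR0B1, STEAP1, FLI1, EWSR1 and LIPI had lower means there, as CCND1 did. Libraries of a group differed by more than counting noise in every pair (chi-square per degree of freedom 2.31 to 35.6). The second A4573-R library stood apart from the other two for PANX1 and P2RY2 and, among genes named below, for INHBE, KLHDC7B, HOXB9 and TXNIP, and the values of PANX1 and TXNIP without it are given.

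P2RX7 was abundant in the parental TC-71 cells only, and the derivatives differed from their parents in opposite directions. The 3 parental TC-71 libraries had 49.3, 50.7 and 47.7 CPM of P2RX7, from 12636 reads in all. TC-71-R had 0.770, 1.01 and 0.691 CPM, from 196 reads. These values chose the gene, and they put the parent 59.8 times above the derivative (49.2 ± 1.52 against 0.823 ± 0.166 CPM, SD, n = 3) with no overlap. Parental A4573 had 0.837, 0.849 and 0.795 CPM, from 202 reads. A4573-R had 3.51, 3.85 and 3.55 CPM, from 826 reads, and all of its libraries lay above all of the parental ones. P2RX7 rose 4.40-fold in A4573-R by group means, from 0.827 ± 0.0285 to 3.64 ± 0.182 CPM (log2 change 1.34, SE 0.062, adjusted p = 3.7e-11, limma). The log2 change is on the log2(CPM + 1) scale, which draws low levels towards 0, and edgeR on the recovered reads gave 2.11. TC-71-R overlapped with parental A4573. A4573-R stood 4.42-fold above TC-71-R, a difference given without a test because it rests on the TC-71-R level that chose the gene.

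**Figure D1:**
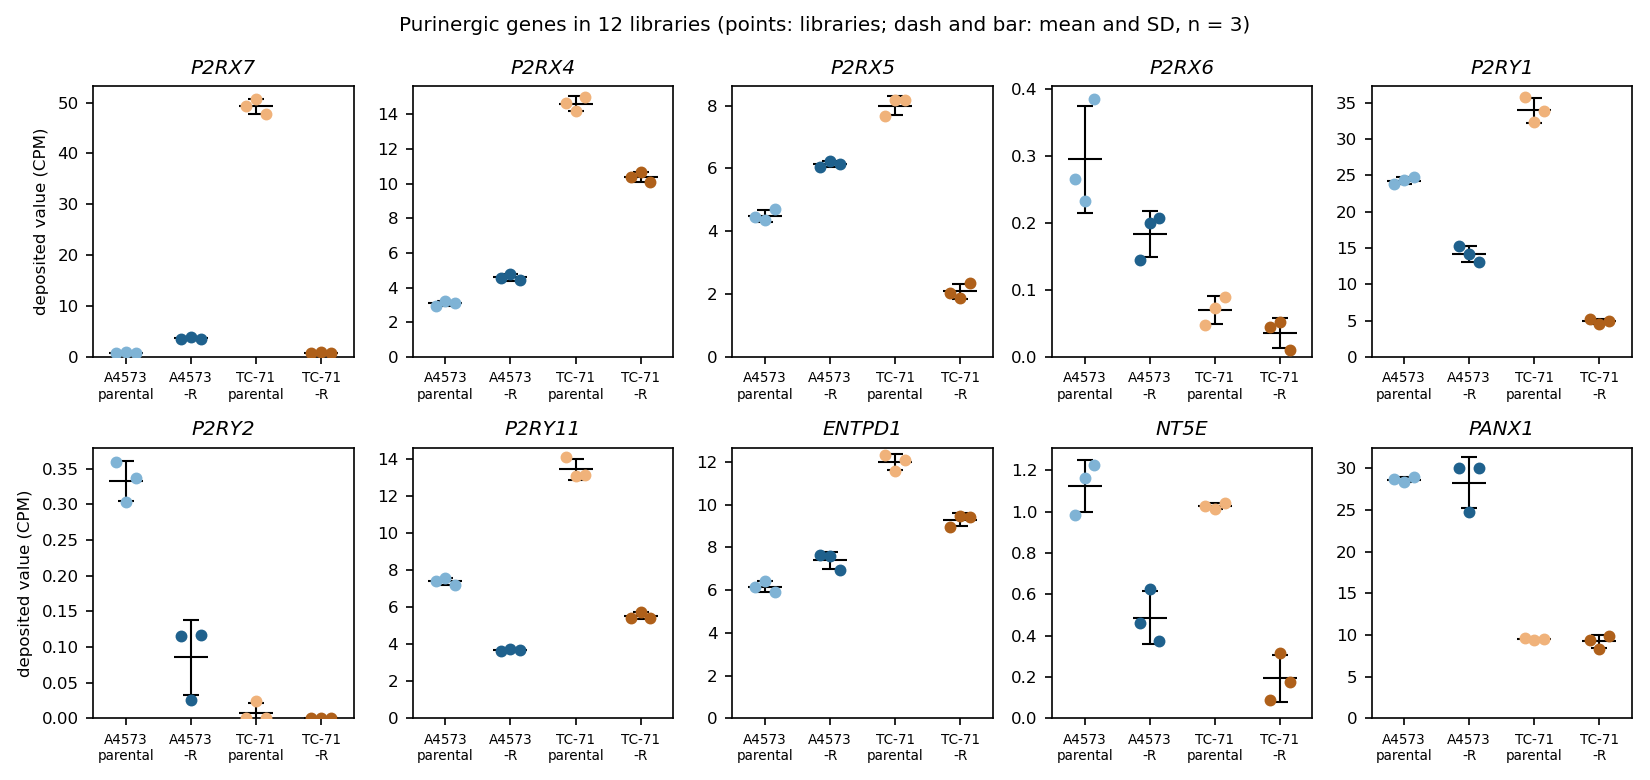
Deposited value in CPM (vertical axes, each from 0 and each with its own scale) of the 10 purinergic genes in the 4 groups, with a point per library, a dash at the mean and a bar of 1 SD (n = 3). P2RX7 is near 49 CPM in parental TC-71 and under 4 CPM in the other groups, P2RX4, P2RX5 and ENTPD1 are above the parent in A4573-R and below it in TC-71-R, and PANX1 overlaps between each derivative and its parent.

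The size of the P2RX7 difference in TC-71 was extreme among all genes on the scale used. Its log2 change in TC-71-R, a value that chose it, was -4.79 (SE 0.062), the lowest of the 14335 tested genes. With a pseudocount of 0.25 it was the 6th lowest, and by edgeR and DESeq2 on recovered reads the 31st lowest (-5.88 by both). Over the 23 ways of processing the values it ranged from -5.88 to -4.73. Parental TC-71 was also far above the other parent, at 59.5 times parental A4573.

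P2RX4 encodes an ATP-gated channel that lets calcium through and is often found in lysosomes. It was present in all groups and differed from the parents in the same directions as P2RX7, by far less. Parental A4573 had 2.94, 3.21 and 3.12 CPM and A4573-R 4.53, 4.81 and 4.43 CPM. P2RX4 rose 1.49-fold in A4573-R without overlap (log2 change 0.45, SE 0.048, adjusted p = 6.1e-07, limma). Parental TC-71 had 14.7, 14.2 and 15.01 CPM and TC-71-R 10.4, 10.7 and 10.1 CPM. Here all libraries of the derivative lay below the parent, whose mean was 1.41 times higher (log2 difference -0.46). P2RX4 therefore kept most of its level in TC-71-R, where P2RX7 had 196 reads left.

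P2RX5, another ATP-gated channel, differed from the parents in the same directions. It had 4.44, 4.34 and 4.70 CPM in parental A4573 and 6.03, 6.22 and 6.13 CPM in A4573-R. The rise was 1.36-fold (log2 change 0.38, SE 0.058, adjusted p = 3.0e-05, limma). Parental TC-71 had 7.66, 8.16 and 8.18 CPM and TC-71-R 2.04, 1.86 and 2.34 CPM. The parent was 3.84 times the derivative, again without overlap (log2 difference -1.55). A readthrough gene, P2RX5-TAX1BP3, shares 1743 bases, 41.6%, of the annotated P2RX5 exons. It was listed at 0.926, 0.672, 0.863 and 0.790 CPM on average in parental A4573, A4573-R, parental TC-71 and TC-71-R. The sources used here do not give how reads that fit both were counted.

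P2RX6, whose product forms channels mainly together with other P2X subunits, was close to the detection limit. Its reads were 20, 20 and 32 in parental A4573, 10, 16 and 16 in A4573-R, 4, 6 and 8 in parental TC-71, and 3, 4 and 1 in TC-71-R. All parental A4573 libraries lay above all A4573-R ones in CPM, while the TC-71 groups overlapped. It was not tested.

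P2RY1, the receptor for ADP that couples to phospholipase C, was the P2Y receptor with the most reads in the parental lines and was lower in both derivatives. Parental A4573 had 23.7, 24.3 and 24.7 CPM and A4573-R 15.3, 14.2 and 13 CPM. P2RY1 fell 1.71-fold in A4573-R (log2 change -0.74, SE 0.058, adjusted p = 1.7e-08, limma). Parental TC-71 had 35.8, 32.4 and 33.8 CPM and TC-71-R 5.24, 4.58 and 4.93 CPM, a 6.91-fold lower mean without overlap (log2 difference -2.56). After P2RX7 this was the largest difference among the tested members in TC-71-R.

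P2RY11, a receptor for ATP that couples to both calcium and cyclic AMP, was also lower in both derivatives. It had 7.39, 7.59 and 7.19 CPM in parental A4573 and 3.65, 3.74 and 3.67 CPM in A4573-R. The fall was 2.01-fold (log2 change -0.84, SE 0.047, adjusted p = 3.5e-10, limma). Parental TC-71 had 14.1, 13.1 and 13.1 CPM and TC-71-R 5.4, 5.74 and 5.42 CPM, a 2.43-fold lower mean without overlap (log2 difference -1.15). P2RY11 shares 1148 bases, 50.02%, of its exons with the readthrough gene PPAN-P2RY11, which averaged 0.251, 0.173, 0.223 and 0.133 CPM in parental A4573, A4573-R, parental TC-71 and TC-71-R. It also shares 113 bases, 4.92%, with EIF3G on the other strand, whose mean of 97.6 CPM in parental TC-71 and 154 CPM in TC-71-R went the other way. The sources used here do not give the strand setting of the counting.

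P2RY2, which responds to ATP and UTP, had 27, 26 and 28 reads in parental A4573 and 8, 2 and 9 in A4573-R, where every library lay below the parent. Parental TC-71 had 0, 2 and 0 reads and TC-71-R none. A count of 0 allows up to 3 reads, which is 0.0309 to 0.0444 CPM per library, so neither TC-71 group can be told from 0 and no fold is given. These limits cover counting error only. P2RX6 and P2RY2 were thus the 2 members below 1 CPM in every library.

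Both enzymes among the members were detected, at different levels. ENTPD1 had 6.13, 6.42 and 5.93 CPM in parental A4573 and 7.64, 7.60 and 6.95 CPM in A4573-R, a rise of 1.20-fold (log2 change 0.23, SE 0.050, adjusted p = 0.00070, limma). Parental TC-71 had 12.3, 11.6 and 12.1 CPM and TC-71-R 8.96, 9.49 and 9.44 CPM, so the parent was 1.29 times higher without overlap (log2 difference -0.34). The antisense gene ENTPD1-AS1 covers 454 bases, 6.51%, of the ENTPD1 exons. It averaged 8.42, 9.56, 9.59 and 7.08 CPM in parental A4573, A4573-R, parental TC-71 and TC-71-R, and its reads cannot be told from those of ENTPD1 in the shared bases without strand.

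NT5E, which makes adenosine, was the least abundant tested member in TC-71-R. It had 0.983, 1.16 and 1.23 CPM in parental A4573 and 0.463, 0.625 and 0.375 CPM in A4573-R. NT5E fell 2.31-fold by group means (log2 change -0.52, SE 0.074, adjusted p = 1.3e-05, limma). Parental TC-71 had 1.03, 1.01 and 1.04 CPM and TC-71-R 0.0888, 0.315 and 0.175 CPM, from 264 and 47 reads. The parental mean was 5.33 times that of TC-71-R, with no overlap. At these levels the pseudocount sets the size on the log2 scale, where the difference was -0.77 by limma and -2.35 by edgeR on the recovered reads. ENTPD1 and NT5E thus differed in direction in A4573-R.

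PANX1, a large-pore channel through which cells release ATP, did not pass the test in A4573-R, and it overlapped with the parent in both lines. Parental A4573 had 28.7, 28.3 and 28.9 CPM and A4573-R 30, 24.7 and 30.1 CPM (log2 change -0.02, SE 0.068, adjusted p = 0.77, limma). Without the second A4573-R library the log2 change was 0.07. Parental TC-71 had 9.66, 9.35 and 9.51 CPM and TC-71-R 9.45, 8.37 and 9.88 CPM (log2 difference -0.04). The lines themselves were apart, with 3.01 times as much PANX1 in parental A4573 as in parental TC-71.

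Counted over the 8 tested members, 4 rose in A4573-R (P2RX7, P2RX4, P2RX5, ENTPD1), 3 fell (P2RY1, P2RY11, NT5E) and PANX1 did not pass. Of all tested genes 72.5% passed in that comparison, 38.3% higher and 34.1% lower, so a share of 7 in 8 says little about these genes. The median log2 change of the 8 was 0.10, against 0.02 over all tested genes. In TC-71-R, the comparison that chose the set, every library lay below every parental one for 7 of the 8, and PANX1 overlapped. Over all tested genes 78.5% passed the threshold there, 38.8% higher and 39.6% lower, and nothing is read from the count. The median log2 difference of the 8, P2RX7 included, was -0.96, against -0.00 over all tested genes. Nothing is read from this median either, since this comparison chose the set. P2RX7, P2RX4, P2RX5 and ENTPD1 were higher than the parent in A4573-R and lower than the parent in TC-71-R, in every library. Over all tested genes 39.7% lay wholly above the parent in A4573-R and 40.9% wholly below it in TC-71-R. The share with both was not computed. P2RY1, P2RY11 and NT5E were lower in both derivatives. In bulk RNA a lower level can mean fewer cells with the transcript or less transcript per cell, and these cannot be told apart.

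**Figure D2:**
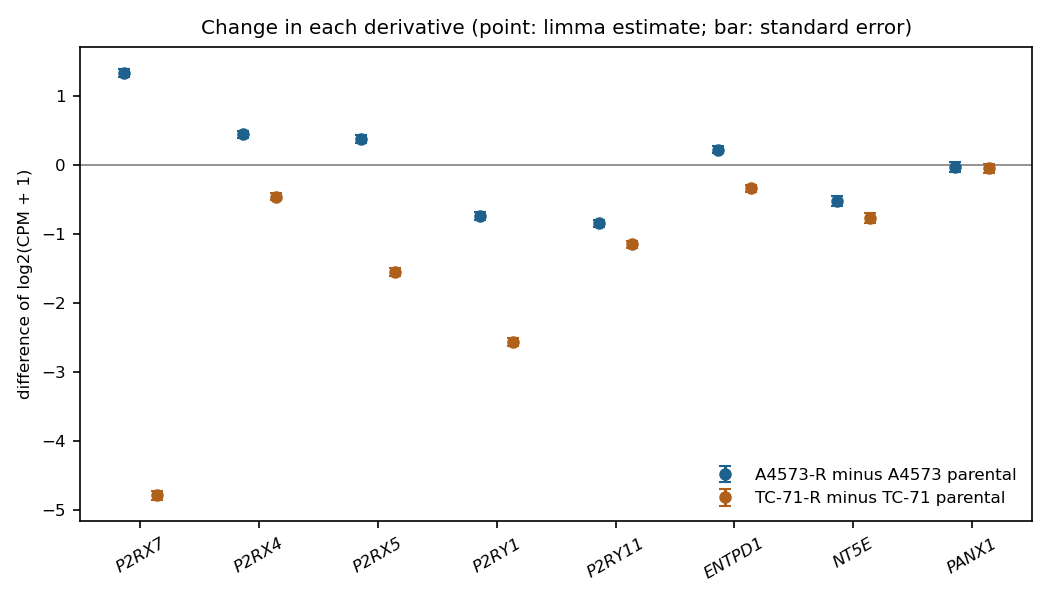
Difference of log2(CPM + 1) between each derivative and its parent (vertical axis) for the 8 tested members, estimated by limma, with bars of 1 standard error. P2RX7 lies at 1.34 in A4573-R and -4.79 in TC-71-R, P2RX4, P2RX5 and ENTPD1 also have opposite signs, and PANX1 lies near 0 in both.

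The parental lines differed in most members. Tested without P2RX7, parental TC-71 exceeded parental A4573 in P2RX4 by 4.74-fold (log2 1.94, adjusted p = 2.9e-15, limma) and in ENTPD1 by 1.95-fold (log2 0.86, adjusted p = 1.1e-10). P2RY11, P2RX5 and P2RY1 were 1.82-fold, 1.78-fold and 1.40-fold higher in parental TC-71, with adjusted p-values from limma of 1.8e-10, 8.3e-09 and 1.5e-06. PANX1 was lower in parental TC-71 (log2 -1.5, adjusted p = 4.7e-12), and NT5E did not pass the test (log2 -0.07, adjusted p = 0.40) and overlapped. In this comparison 89.9% of all tested genes passed, 45.9% higher and 44.1% lower in TC-71. Parental TC-71 was thus the group with the highest level of P2RX7, P2RX4, P2RX5, P2RY1, P2RY11 and ENTPD1.

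Between the derivatives, where 89.2% of all tested genes passed (43.7% higher and 45.5% lower in TC-71-R), the 7 members tested all differed. Against A4573-R, TC-71-R had more P2RX4 (2.26-fold, adjusted p = 8.0e-12, limma), P2RY11 (1.5-fold, 9.2e-08) and ENTPD1 (1.26-fold, 4.2e-05). It had less P2RX5 (2.94-fold, 9.8e-12), P2RY1 (2.88-fold, 2.5e-12), NT5E (2.53-fold, 0.00078) and PANX1 (3.06-fold, 4.2e-12). For P2RX5 and P2RY1 the line that was higher among the parents was therefore the lower one among the derivatives. The comparisons share libraries and are not independent of each other.

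Divided by exon length, the levels ordered the members differently in each group. In parental A4573 PANX1 was highest at 10.3 CPM per kb, ahead of P2RY1 at 3.60 and P2RY11 at 3.22, while P2RX7 at 0.149 came eighth of the 10. All neighbours in that order were apart in every library. In A4573-R the order was similar, with PANX1 at 10.2, P2RY1 at 2.10, P2RY11 at 1.61 and P2RX5 at 1.46, and P2RX7 at 0.656 lay above P2RX4 at 0.563. Only P2RX6 (0.0389) and P2RY2 (0.0299) overlapped there.

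In parental TC-71 P2RX7 led at 8.88 CPM per kb, above P2RY11 at 5.85, P2RY1 at 5.04 and PANX1 at 3.43. P2RX5 at 1.91, P2RX4 at 1.79 and ENTPD1 at 1.72 followed, and each overlapped with the next. In TC-71-R PANX1 was first at 3.33 and P2RY11 second at 2.41. ENTPD1 at 1.33 and P2RX4 at 1.27 overlapped, P2RY1 was at 0.729 and P2RX5 at 0.497, and P2RX7 at 0.148 was the seventh. P2RX4 was thus the most abundant P2X gene per length in TC-71-R, P2RX5 in both A4573 groups, and P2RX7 in parental TC-71.

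**Figure D3:**
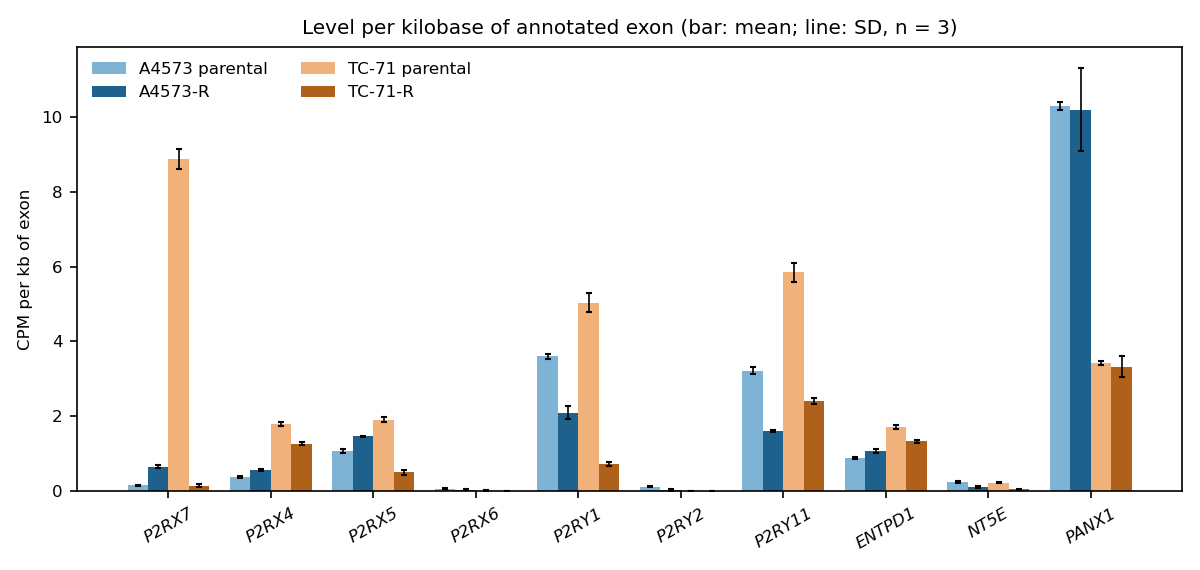
Level per kilobase of annotated exon (vertical axis, CPM per kb, from 0) of the 10 genes, with a bar per group at the mean and a line of 1 SD (n = 3). P2RX7 reaches 8.88 in parental TC-71 and at most 0.656 elsewhere, and PANX1 is the tallest in the other 3 groups.

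The genes next to P2RX7 on chromosome 12 were lower in TC-71-R too, by much smaller amounts. Within 1 Mb of the P2RX7 start lie 86 other annotated genes, of which 37 were tested, 36 without P2RX4. Of these 36 genes 30 fell in TC-71-R, none rose and 6 did not pass (83.3% lower, against 39.6% over all tested genes, limma). Their median log2 change was -0.49, a ratio of 0.71, and in 32 of them all TC-71-R libraries lay below all parental ones (40.9% over all tested genes). In A4573-R 15 rose, 10 fell and 11 did not pass, with a median of 0.03. Over the 23 ways of processing, the number that fell in TC-71-R ranged from 24 of 27 (genes with a mean of at least 5 CPM) to 34 of 36 (library size from named genes only), and none rose in any.

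By name, the tested genes close to P2RX7 include OASL, SPPL3 and ACADS before it and P2RX4, CAMKK2, ANAPC5 and RNF34 after it. RNF34, a ubiquitin ligase, fell by 0.76 on the log2 scale in TC-71-R (adjusted p = 9.8e-11, limma), and ANAPC5, a subunit of the anaphase-promoting complex, by 0.55 (1.3e-10). ACADS, an enzyme of fatty acid oxidation, fell by 0.50 (1.3e-06), SPPL3, an intramembrane protease, by 0.49 (3.9e-09), and CAMKK2, a calcium-dependent kinase, by 0.48 (7.9e-07). OASL, an interferon-induced gene, fell by 0.33 (0.00044) and is nearly absent from the A4573 groups. In A4573-R CAMKK2 (log2 0.29, adjusted p = 0.00020) and RNF34 (0.14, 0.0064) rose, and ACADS, SPPL3, OASL and ANAPC5 did not pass. P2RX4, at -0.46 in TC-71-R, was close to the median of the 36 genes, and P2RX7, at -4.79, was far below it.

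**Figure D4:**
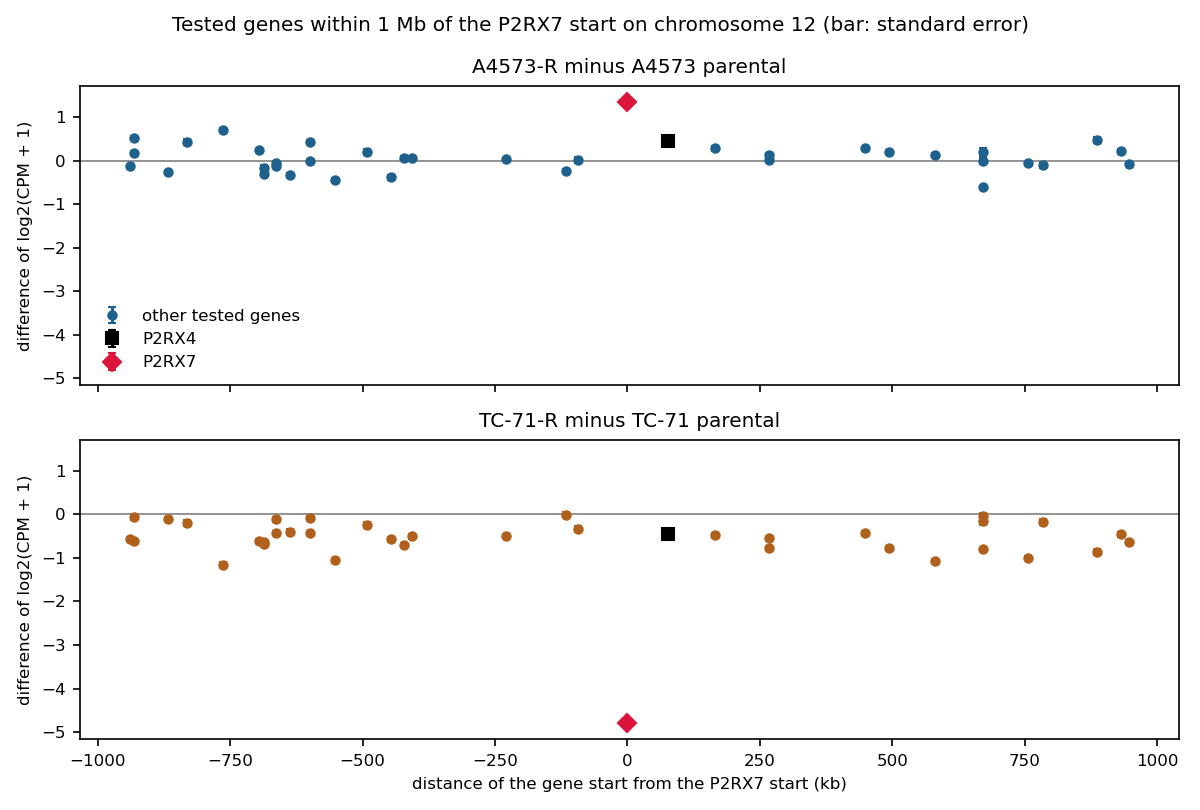
Difference of log2(CPM + 1) between derivative and parent (vertical axes, limma, bars of 1 standard error) for the 37 other tested genes within 1 Mb of the P2RX7 start, by distance of the gene start in kb (horizontal axis), with P2RX7 and P2RX4 marked. In TC-71-R the other genes have a median of -0.49 and P2RX7 is at -4.79, and in A4573-R they scatter around 0.03 with P2RX7 at 1.34.

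The lower levels extended beyond the window, and chromosome 12 as a whole had a low median in TC-71-R. Of its 775 tested genes 484 fell and 161 rose (62.5% lower), with a median log2 change of -0.30. Among the 22 autosomes only chromosomes 13 (-0.51) and 15 (-0.43) had lower medians. In A4573-R 281 genes of chromosome 12 rose and 281 fell, with a median of 0.01. A long non-coding RNA between P2RX7 and P2RX4, AC069209.1, had 29, 21 and 27 reads in parental TC-71 and 0 in all of TC-71-R, and at most 1 read per library in the A4573 groups. It was noticed after its values were seen.

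The neighbourhoods of the other members, also examined after the values were seen, did not all move with their member. Around P2RX5 17 of 20 tested genes fell and 1 rose in A4573-R (median -0.49), while P2RX5 itself rose. In TC-71-R, where P2RX5 was lower, 10 of those genes rose and 5 fell (median 0.12). Around PANX1 12 of 16 fell and none rose in A4573-R (median -0.51), while PANX1 did not pass the test. Around ENTPD1 8 of 9 fell and none rose in TC-71-R (median -0.31), close to the ENTPD1 difference of -0.34. Around P2RY11 22 of 44 rose and 8 fell in TC-71-R (median 0.10), while P2RY11 was lower by 1.15. For P2RY2 4 of 17 rose and 11 fell in A4573-R, and 7 rose and 6 fell in TC-71-R. For P2RX6 7 of 31 rose and 14 fell in A4573-R, and 16 rose and 8 fell in TC-71-R. Of the 2 tested neighbours of P2RY1, 1 fell and none rose in A4573-R, and 2 fell in TC-71-R, where P2RY1 was lower. Of the 4 around NT5E, 2 rose and 1 fell in A4573-R, and 1 rose and 3 fell in TC-71-R, where NT5E was lower. Over all tested genes 38.3% rose and 34.1% fell in A4573-R, and 38.8% rose and 39.6% fell in TC-71-R. In A4573-R 56.8% fell on chromosome 11, which holds PANX1, and 38.1% on chromosome 17, which holds P2RX5.

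The genes whose pattern over the 12 libraries was closest to P2RX7 were searched by root mean square distance of centred log2(CPM + 1) values. This is a description, since P2RX7 was chosen for its pattern. Among the nearest were INHBE at 0.337, KLHDC7B at 0.439, OSTN at 0.458, IL20RB at 0.549 and HOXB9 at 0.578, against a median of 2.00 over all tested genes. INHBE encodes an inhibin subunit, OSTN a secreted peptide of bone and muscle, IL20RB a cytokine receptor chain and HOXB9 a homeobox factor. KLHDC7B had 0.260, 1.08 and 0.155 CPM in A4573-R. INHBE, also on chromosome 12, had 25.5 ± 0.741 CPM in parental TC-71, 0.276 ± 0.121 in TC-71-R and 0.233 ± 0.0202 in parental A4573. In A4573-R it had 0.694, 1.95 and 0.672 CPM, the second library being the high one. HOXB9 shared the higher level in A4573-R, with 14.5, 20.6 and 12.9 CPM against 2.63 ± 0.25 in its parent, and had 62.1 ± 2.72 CPM in parental TC-71 and 3.79 ± 0.253 in TC-71-R. No member was among the nearest. Out of 14334 genes P2RY1 ranked 528th, P2RX5 606th, P2RX4 666th, P2RY11 793rd, ENTPD1 1762nd, NT5E 3476th and PANX1 12877th.

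The other genes of the system were taken from 7 lists with 92 entries, of which 60 were tested. In A4573-R 24 of them rose, 22 fell and 14 did not pass, and in TC-71-R 20 rose, 27 fell and 13 did not pass. Over all tested genes 38.3% rose and 34.1% fell in A4573-R, and 38.8% rose and 39.6% fell in TC-71-R. The counts here and for each list below are to be read beside these shares, and nothing is read from them. The counts for TC-71-R include P2RX1, P2RX2, P2RY12 and NFATC2, which passed the filter only through the TC-71 group where they were high, and nothing is read from those 4. The median log2 change of the 60 was -0.01 in A4573-R and -0.05 in TC-71-R, against 0.02 and -0.00 over all tested genes. The difference between the changes of the lines, TC-71-R minus A4573-R, passed limma's interaction test for 22 of the 60 upwards and 27 downwards. Over all tested genes 78.1% passed that test, 37.9% upwards and 40.2% downwards.

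Of the 10 other P2X and P2Y receptors, 7 were below 1 CPM in every library. One of these, P2RY8, is listed at 0 throughout under 2 entries and, as with CD99, this is not taken as its level. P2RX1, a fast desensitising ATP channel of smooth muscle and platelets, fell in A4573-R (log2 -0.27, adjusted p = 0.00031, limma) from 0.253 ± 0.0559 to 0.0392 ± 0.0105 CPM. It averaged 1.38 ± 0.115 CPM in parental TC-71 and 0.213 ± 0.0543 CPM in TC-71-R. P2RY12, the platelet and microglial ADP receptor, averaged 1.49 CPM in parental TC-71 and 0.0215 CPM in TC-71-R. P2RX2, an ATP channel of neurons, averaged 0.152 CPM in parental TC-71 and 1.55 CPM in TC-71-R. These 3 genes passed the filter only through the TC-71 group in which they were high, so no test is given for them between the TC-71 groups. P2RX3, below the filter and picked after its values were seen, had 26, 35 and 27 reads in A4573-R and 0 to 5 reads in every other library.

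Adenosine, the end product of ENTPD1 and NT5E, has 4 receptors, of which ADORA2B alone was tested. It averaged 7.05 CPM in parental A4573 and 6.46 in A4573-R and did not pass there. In TC-71 it went from 8.33 to 9.46 CPM (log2 0.16, adjusted p = 0.041, limma), a call that was lost under 8 of the alternative settings.

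Of 19 other enzymes that act on extracellular nucleotides or adenosine, 16 were tested, and in A4573-R 8 rose and 8 fell. ENPP2, or autotaxin, fell there from 12.1 to 5.30 CPM (log2 -1.06, adjusted p = 1.8e-10, limma) and ALPL, the tissue-nonspecific alkaline phosphatase, from 10.5 to 6.99 (-0.52, 4.0e-07). ADA2, an adenosine deaminase, rose from 3.53 to 7.82 CPM (0.96, 2.1e-10) and ENTPD3, a relative of ENTPD1, from 4.59 to 7.48 (0.60, 4.6e-08). In TC-71-R 3 of the 16 rose, 6 fell and 7 did not pass. ENPP1, which splits ATP into AMP and pyrophosphate, rose there from 39.4 to 83.2 CPM (1.06, 3.7e-13, limma), ENPP3 from 28.5 to 43.4 (0.59, 9.8e-09) and ALPL from 17.9 to 25.6 (0.50, 4.8e-07). DPP4, a surface peptidase that binds adenosine deaminase, fell from 1.79 to 1.09 CPM (-0.42, 9.4e-05). ALPL therefore changed in opposite directions in the derivatives.

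Of 16 entries for other release channels and nucleotide vesicle genes, 14 were matched in the files and 9 tested. PANX2, a relative of PANX1, rose in A4573-R from 3.36 to 6.49 CPM (log2 0.78, adjusted p = 3.3e-08, limma) and in TC-71-R from 3.11 to 6.01 (0.77, 2.7e-08). LRRC8C, a subunit of volume-regulated anion channels, fell in A4573-R from 14.5 to 8.60 CPM (-0.70, 2.1e-06) and in TC-71-R from 2.33 to 1.16 (-0.62, 5.5e-06). LRRC8D, another subunit, fell in TC-71-R from 88.7 to 20.6 CPM (-2.05, 3.3e-12, limma) and LRRC8B from 14.4 to 5.43 (-1.26, 2.1e-10). In A4573-R GJA1, or connexin 43, rose from 79.1 to 115 CPM (0.54, 5.5e-07) and LRRC8A from 52.7 to 72.2 (0.44, 1.3e-06). In all, 3 of the 9 rose and 3 fell in A4573-R, and 4 rose and 5 fell in TC-71-R, while PANX1 itself did not pass in A4573-R.

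The 4 tested nucleoside transporters, which carry adenosine across the membrane, passed in both derivatives, as did most tested genes (72.5% in A4573-R and 78.5% in TC-71-R). SLC29A4 rose in A4573-R from 26.0 to 50.1 CPM (log2 0.92, adjusted p = 3.8e-11, limma) and in TC-71-R from 14.6 to 26.6 (0.82, 7.2e-11). SLC29A1 rose in A4573-R (0.43, 1.8e-06) and fell in TC-71-R (-0.25, 0.00032). SLC29A2 fell in A4573-R (-0.53, 1.5e-07) and rose in TC-71-R (0.68, 4.9e-09), and SLC29A3 did the same (-0.35, 0.00084, and 0.38, 0.00035).

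Inflammasome and IL1 genes, which include those through which P2RX7 acts in macrophages, were mostly below the filter. Of 14, 9 were below 1 CPM in every library, NLRP3, PYCARD, CASP1 and IL1B among them. Leukocyte markers were low too. Of 8 only PTPRC reached 1 CPM, with a mean of 1.07 CPM in parental TC-71 and 0.962 in TC-71-R. The 8 summed to 1.67 to 1.97 CPM in parental TC-71 and 1.42 to 1.72 in TC-71-R. In parental A4573 they summed to 0.425 to 0.494 CPM, and in A4573-R to 1.19 to 1.69, without overlap. Of the 5 tested inflammasome genes, NLRP1 rose in A4573-R from 8.06 to 17.4 CPM (log2 1.02, adjusted p = 5.4e-10, limma) and averaged 66.9 in parental TC-71 and 66.8 in TC-71-R. CASP4 rose in TC-71-R from 6.05 to 11.5 CPM (0.83, 9.2e-09). TXNIP had 60.7, 91.0 and 64.1 CPM in A4573-R, the second library being the high one. It rose in both derivatives (0.49, 0.00075, and 0.57, 0.00015), and without that library its log2 change in A4573-R was 0.31 (adjusted p = 0.00030, limma). NEK7 fell in both (-0.32, 6.1e-06, and -0.16, 0.0025).

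All 22 effectors of calcium and phosphoinositide signalling and of the P2RX7 pore were tested. In A4573-R 9 rose, 7 fell and 6 did not pass, and in TC-71-R 6 rose, 12 fell and 4 did not pass. The receptors for inositol trisphosphate, which release stored calcium downstream of P2Y receptors, moved apart from each other. ITPR2 fell in TC-71-R from 18.0 to 1.71 CPM (log2 -2.81, adjusted p = 2.1e-15, limma) and ITPR1 from 41.3 to 20.6 (-0.97, 4.7e-11). In A4573-R ITPR1 fell from 12.5 to 8.76 CPM (-0.47, 3.7e-07) and ITPR3 rose from 13.5 to 23.9 (0.78, 6.3e-10). ITPR2 also fell in A4573-R (-0.36, 3.0e-05, limma) and ITPR3 also rose in TC-71-R (0.42, 6.2e-07). Each of these receptors thus had the same direction in both derivatives. PLCB1, a phospholipase C, rose in A4573-R from 3.63 to 7.35 CPM (0.85, 2.3e-10), as did NFATC1, a calcium-regulated transcription factor, from 10.6 to 14.4 (0.41, 8.4e-07). In TC-71-R EMP2, a membrane protein that binds P2RX7, rose from 7.63 to 18.1 CPM (1.14, 7.7e-11). NFATC2, which averaged 0.214 CPM in parental TC-71 and 1.40 in TC-71-R, is among the 6 that rose but passed the filter only through TC-71-R.

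Markers of other cell types moved with the groups. Epithelial markers summed to 21.4 to 22.4 CPM in parental TC-71 and 4.65 to 5.39 in TC-71-R, KRT18 making up most of both, and to 0.585 to 1.81 in the A4573 groups. Fibroblast markers summed to 376 to 391 CPM in parental A4573, 304 to 311 in A4573-R, 26.1 to 26.98 in parental TC-71 and 77.4 to 77.5 in TC-71-R, and no endothelial marker reached 1 CPM. COL1A2 made up most of both A4573 sums, with means of 292 and 238 CPM, and averaged 0.0390 in parental TC-71 and 0.5335 in TC-71-R. COL1A1 was higher in parental TC-71 than in parental A4573 (18.6 against 13.9 CPM). In A4573-R COL1A1, COL1A2 and LUM had lower means than in the parent, and DCN and PDGFRA higher ones. The part of these markers in the members' values was not tested.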

How the data were processed

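Total RNA from 12 libraries was sequenced after TruSeq RNA library preparation, per the labels' protocols. The submitters' processing notes name Trimmomatic, STAR 2.4, HTSeq, edgeR and GRCh38. Counting mode, strand setting and annotation are not given in the sources used here. The deposited signal is a normalized value per gene and library, made by the authors as CPM on library sizes multiplied by a factor of 0.894 to 1.06. All deposited values (100%) are whole reads within 0.001 after division by each library's step, so reads were recovered for depth and for edgeR 4.0.16 and DESeq2 1.42.0, which were run as alternatives. Symbols given to more than 1 entry were summed (253 symbols). The 5 entries without a gene name hold 30.6% to 42.0% of reads and were left out of depth and tests, although the deposited scaling counts them.

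Genes with 1 CPM or more in 3 or more libraries were fitted as log2(CPM + 1) with limma 3.58.1 in R 4.3.3, with 4 group means and a variance trend. P-values are Benjamini-Hochberg adjusted over 14335 genes, with a threshold of 0.05. The members, the gene lists and the tests were chosen with earlier results of these data known. Values of the members in TC-71-R against its parent, and of P2RX7 against the other line, are given without a test. The genes named beside the members are, per list and line, up to 4 past the threshold with the largest changes, the 4 nearest tested genes on each side of P2RX7, and the 6 genes nearest to it in pattern. A few genes that this rule takes are not reported here. Additions made after values were seen are named as such. Levels per kb use exon lengths from GENCODE 29. Promoter windows are from RefSeq, where P2RX5, P2RX6 and P2RY2 were not matched. The fit was tested on simulated data. Alternatives were other scalings, pseudocounts, filters, count models, a replicate block and leaving out each library.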

Additional observations from a re-analysis of the deposited data

Results flagged for a closer look

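For 4 members every A4573-R library lay above its parent and every TC-71-R library below its parent. Of all tested genes, 39.7% met the first condition and 40.9% the second. The share that met both was not computed, and the TC-71 comparison chose the set, so nothing is read from this count. The log2 change in TC-71-R minus that in A4573-R was -6.13 for P2RX7, -1.92 for P2RX5, -0.907 for P2RX4 and -0.565 for ENTPD1. This difference was not tested, because P2RX7 was chosen on the TC-71 comparison.

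Among the other genes of the system the difference between the changes was tested as an interaction in limma, in which 78.1% of all tested genes passed the adjusted threshold. All values that follow passed it and are log2 changes in TC-71-R minus those in A4573-R. Among receptors, P2RX2 had 1.09 and ADORA2B 0.275, while P2RX1 had -0.703 and P2RY12 -1.28. P2RX2, P2RX1, P2RY12 and the effector NFATC2 passed the filter on low values only through the TC-71 group where they were high, so nothing is read from their passing. Enzymes with a higher change in TC-71-R were ENPP2 at 1.05, ALPL at 1.02, ENPP1 at 0.896 and ENPP3 at 0.288, and those with a lower change were ADA2 at -1.1, DPP4 at -0.618 and ENTPD3 at -0.606. The channel genes LRRC8D, LRRC8B and GJA1 had -1.97, -1.06 and -1.02. Among nucleoside transporters SLC29A2 had 1.21, SLC29A3 0.722 and SLC29A1 -0.682. Of the inflammasome list CASP4 had 0.92, NEK7 0.156 and NLRP1 -1.03. The effectors EMP2 and NFATC2 had 1.29 and 1.02, and ITPR2, PLCB1, NFATC1, ITPR1 and ITPR3 had -2.45, -0.778, -0.606, -0.504 and -0.365.

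Near P2RX7 on chromosome 12, all 6 named genes other than P2RX4 had a lower change in TC-71-R than in A4573-R. The interaction was -0.902 for RNF34, -0.77 for CAMKK2, -0.573 for ANAPC5, -0.562 for ACADS, -0.516 for SPPL3 and -0.344 for OASL.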

How the results depend on the processing

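Over the alternatives, 867 values of the 40 member results were recomputed. The direction and side of the threshold, or the value within 1 SD where there was no test, held in 799 of them, 65 untested values moved by more, 2 changed sign and 1 crossed the threshold. Some alternatives cannot change the log2 value of a comparison of 2 groups. These are the other filters, the fit of only those 2 groups, the replicate block and leaving out libraries of other groups. Untested values held there by construction, so 799 overstates how well they hold. PANX1 in A4573-R had a log2 change of -0.0694 to 0.0671 when each library was left out, the highest without the second A4573-R library, and passed in none. The NT5E difference between the changes was 0.103 under quantile normalization, against -0.253, and NT5E passed between the parental lines under that setting alone (-0.292, adjusted p = 0.0019, limma). Among the genes near P2RX7, ACADS in A4573-R was -0.0601 under quantile normalization and OASL in A4573-R ranged from -0.00635 to 0.0202 with libraries left out. The cause was not tested, and the values of these 2 genes as reported had not passed the threshold. ADORA2B in TC-71-R missed the threshold under 8 settings. In A4573-R 7 of the 8 tested members passed it whichever library was left out. Leaving out libraries gave 9807 to 10632 genes past the threshold in A4573-R and 10790 to 11410 in TC-71-R, and 43 to 48 and 43 to 47 pathway genes. Depth limits P2RX6 and P2RY2 most, with 72, 42, 18 and 8 and with 81, 19, 2 and 0 reads per group, and among the tested members NT5E and P2RX7 in their low groups, with 47 to 202 reads.

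The labels number the libraries of each group 1 to 3, but same-numbered libraries did not deviate together (correlation of deviations -0.0974 to 0.165), so the numbers were not taken to pair them. With the replicate block, 10422 genes passed in A4573-R, 11285 in TC-71-R, 12915 between the parents, 12803 between the derivatives and 11236 in the difference of changes and 7 of the 8 tested members in A4573-R.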
